A study of Homo sapiens with 24 samples.

Results

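The genes described here are 9 genes of the epithelial-mesenchymal transition (EMT). They are the transcription factor genes ZEB1, ZEB2, SNAI1, SNAI2, TWIST1 and FOXQ1 and the intermediate filament genes VIM, KRT8 and KRT18. They were chosen by name, with earlier results of these data known. Every probe that the array annotation assigns to these symbols was taken. This gave 13 probes for 9 of the 20042 gene symbols on the array. A probe was tested if, in 1 or more groups, each of the 2 arrays showed a signal above the negative control probes, with a detection p under 0.05. By this rule 10 probes of 7 genes were tested, and SNAI1 and TWIST1 were not detected.

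The series asked which genes microRNAs expressed in oligometastases repress, and measured total RNA of MDA-MB-231 cells, an established human line of metastatic breast cancer, on Illumina HT12v4 arrays. Cells were collected 48 hr after transfection with 50 nM of RNA, and each of 12 groups held 2 arrays. The 6 mimic groups received a synthetic copy of miR-655-3p, miR-544a, miR-410, miR-369-3p, miR-135a or miR-127-5p. The 5 inhibitor groups received an inhibitor of 1 of the same microRNAs except miR-127-5p, and the NT control group received a non-targeting mimic. All groups were the same unmodified line in DMEM with fetal calf serum. No group received a non-targeting inhibitor, so a difference of an inhibitor from the NT control also holds the difference between the 2 kinds of reagent. The authors' methods describe non-targeting mimics with a fluorescent label as negative controls, and name no label for the microRNA mimics. A difference of any group from the NT control may therefore also hold that of the label, which cannot be told apart here. Whether paired arrays came from separate transfections is not given by the labels, so a p-value reflects the spread of these arrays alone, which may be technical.

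In EMT, epithelial cells lose their junctions and keratin network and gain a motile form with vimentin filaments. ZEB1, ZEB2, SNAI1 and SNAI2 are zinc finger repressors that bind E-box sequences in the promoters of junction genes such as CDH1, whereas TWIST1 is a basic helix-loop-helix factor and FOXQ1 a forkhead factor that promote the same change. Vimentin (VIM) is the intermediate filament of mesenchymal cells, and keratin 8 (KRT8) and keratin 18 (KRT18) pair to form the filaments of simple epithelia.

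A microRNA recognises messenger RNAs mainly through its seed, bases 2 to 8 from the 5′ end, so the mature sequences of the mimics are shown with the seed in capitals. Sequences and positions are those of RefSeq on GRCh38.p14, and the labels name no arm for miR-135a and miR-410, so no sequence is given for these.
miR-127-5p: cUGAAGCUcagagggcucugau
miR-369-3p: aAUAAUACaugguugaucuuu
miR-544a: aUUCUGCAuuuuuagcaaguuc
miR-655-3p: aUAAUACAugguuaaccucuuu
The genes lie on the plus strand at chr14:100883001-100883022 (miR-127-5p), chr14:101048712-101048733 (miR-544a), chr14:101049610-101049631 (miR-655-3p) and chr14:101065641-101065661 (miR-369-3p). No seed of 7 bases was shared by any of the 4. miR-369-3p and miR-655-3p held the same run of 13 bases, auaauacaugguu, which starts at base 2 of miR-369-3p and at base 1 of miR-655-3p, so that the seeds are offset by 1 base. The longest run shared by any other pair was 4 bases.

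Across the 7 tested genes, ZEB1 and SNAI2 were lower and KRT8 was higher with the miR-655-3p mimic than in the NT control. The miR-127-5p mimic lowered ZEB1 and SNAI2. The miR-544a mimic lowered FOXQ1 to 152.4 ± 29.3 from 839.2 ± 14.3 (SD, n = 2), and the miR-135a mimic lowered ZEB1 and FOXQ1. Each of these ZEB1 calls was lost without either NT control array. Against the 10 inhibitor arrays no mimic was called for ZEB1, and 9 of these 10 arrays also lay below both control arrays. KRT8 rose with the miR-369-3p mimic, and no member passed the test with the miR-410 mimic. VIM, ZEB2 and the brightest KRT18 probe were called in no comparison.

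Values are normalized intensities (levels), and fold changes are on the log2 scale. A difference was called where its adjusted p over all 22803 tested probes was under 0.05 in 1 limma model of the 24 arrays and its fold was at least 1.4 (0.485 on the log2 scale). The brightest tested probe stands for a gene. Levels of different probes have different scales and are not compared with each other, and levels near the background are compressed, so that their fold changes are understated.

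The line was checked by its markers. All 9 MDA-MB-231 markers were detected on 24 arrays, while ESR1, FOXA1, CDH1, ESRP1 and GRHL2, which define luminal epithelial cells, were detected on 0 arrays. Of the other luminal markers, GATA3 and XBP1 were detected on 24 arrays, AGR2 on 3 and PGR on 1. No leukocyte or erythroid gene with a probe was detected, and PECAM1 was detected on 16 arrays at levels between 20.1 and 43. The median deposited signal was between 101.7 and 123.1 per array, and between 19754 and 21286 probes were detected. The 2 arrays of a group correlated at r = 0.98 (miR-544a mimic) to 0.997, with 0.987 in the miR-369-3p inhibitor group, and where 1 array of these 2 groups changed the call of a member, the value without it is given.

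**Figure D1:**
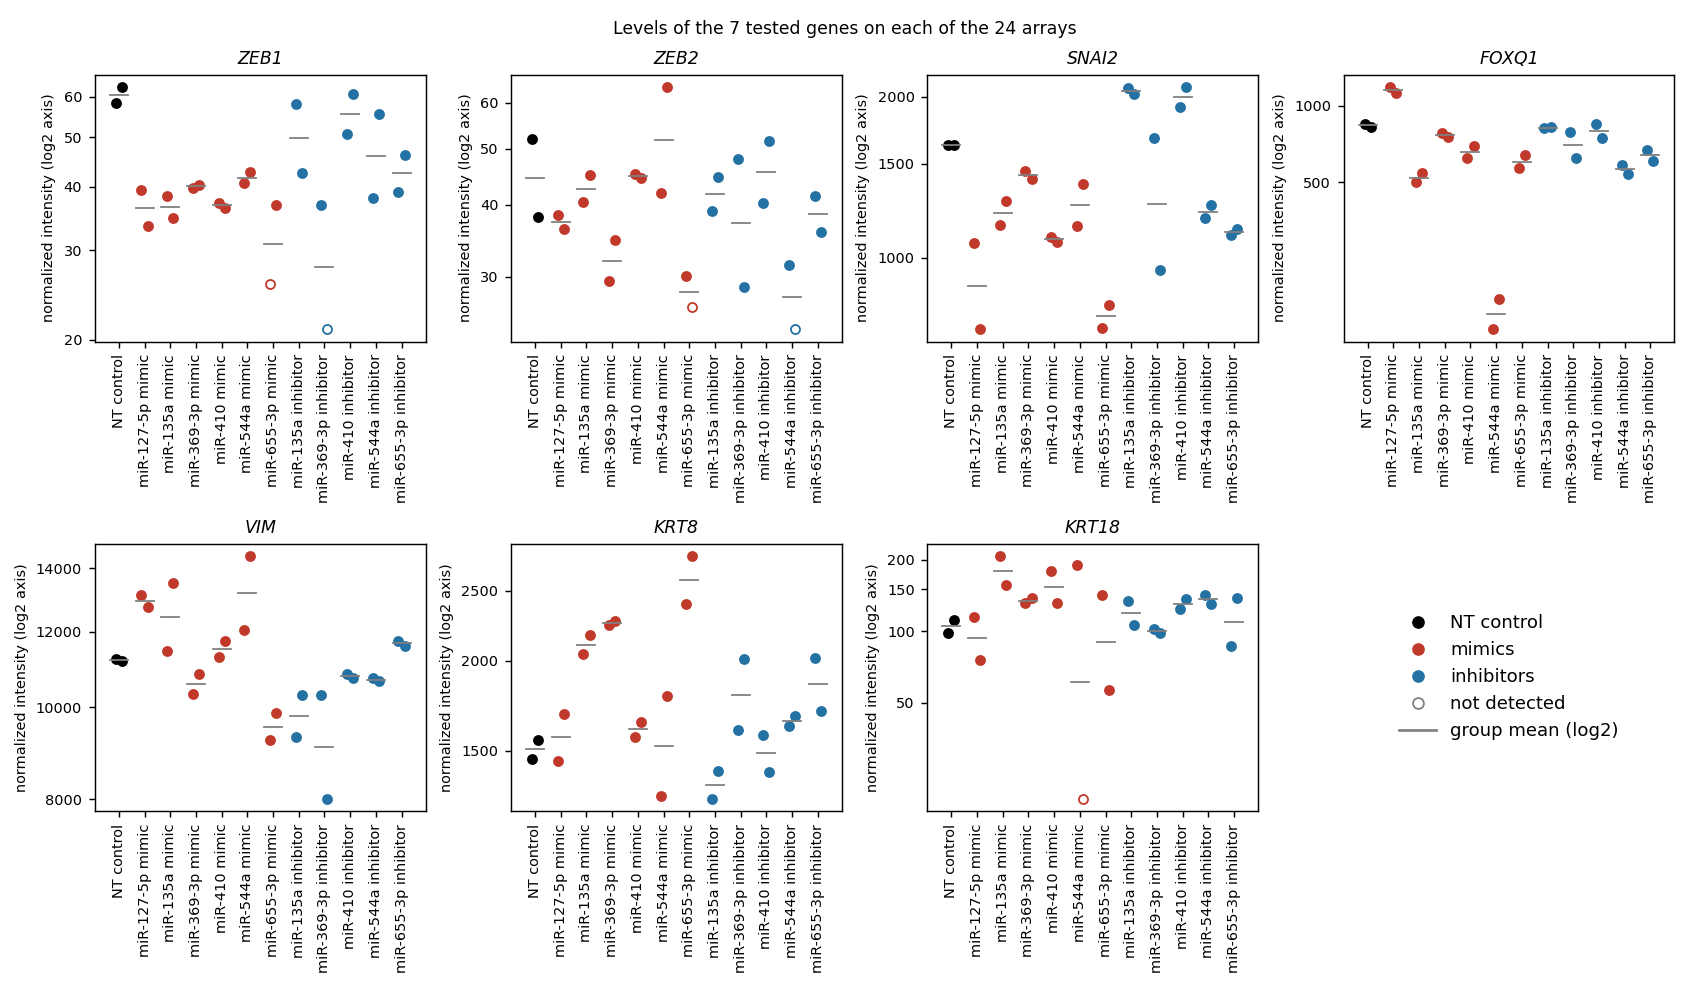
Normalized intensity (log2 axis) of the brightest tested probe of 7 genes on each array, with 2 arrays for each of 12 groups; open points were not detected and grey lines are means of log2 values. FOXQ1 stood at 131.7 and 173.2 with the miR-544a mimic, below the other 22 arrays (502.1 to 1190), and all 12 mimic arrays lay below both NT control arrays for ZEB1 and SNAI2.

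ZEB1 (chr10:31318417-31529804) was dim, at 58.3 and 62.8 in the NT control. All 12 mimic arrays lay below both control arrays, between 25.8 and 42.7 with a median of 37.7, and 9 of 10 inhibitor arrays did so too, with the tenth at 60.7. With the miR-655-3p mimic, ZEB1 was at 25.8 and 36.8, of which the first was not detected, a log2 fold change of -0.98 (SE 0.24, 95% interval -1.48 to -0.47, limma adjusted p = 0.0107). It stood at 39.4 and 33.4 with the miR-127-5p mimic (log2 fold change -0.74, limma adjusted p = 0.0392) and at 38.4 and 34.6 with the miR-135a mimic (-0.73, adjusted p = 0.04). The arrays of these 3 mimics did not overlap the control. The miR-369-3p, miR-410 and miR-544a mimics had differences of nearly the same size, -0.6, -0.72 and -0.54, that did not pass the test (adjusted p between 0.0741 and 0.177).

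Among inhibitors, ZEB1 was called lower with that of miR-369-3p, at 36.9 and 21 (log2 fold change -1.12, limma adjusted p = 0.00519). The lower of these 2 arrays was not detected, and without it the change was -0.72 with an adjusted p of 0.0911. With both arrays kept and the spread taken from the compared arrays only, the change of -1.12 had an adjusted p of 0.0844. Against the 10 inhibitor arrays, no mimic was called for ZEB1, and the largest difference was that of miR-655-3p (-0.49, adjusted p = 0.0763). It was called (-0.57 and -0.54) when either miR-369-3p inhibitor array 2 or miR-544a inhibitor array 1 was left out.

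The ZEB1 calls changed with the correction for background and with single arrays. With no such correction the changes were -0.25 for miR-127-5p and miR-135a, -0.32 for miR-655-3p and -0.37 for the miR-369-3p inhibitor, all under the fold threshold. With the authors' table of values they were -1.13, -1.12 and -1.71 for the 3 mimics with adjusted p between 0.567 and 0.702, and with no filter on dim probes miR-127-5p and miR-135a had adjusted p = 0.0726 and 0.0723. All 3 mimic calls were lost without NT control array 1 or array 2 (adjusted p between 0.05 and 0.173). The miR-655-3p call was also lost without its own array 1 (-0.72, adjusted p = 0.143). Those of miR-127-5p and miR-135a were also lost without either of their own arrays or either miR-369-3p mimic array (-0.62 to -0.86, adjusted p between 0.0502 and 0.223). The miR-410 mimic was called without either miR-369-3p inhibitor array (-0.72, adjusted p = 0.0286 and 0.0289).

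ZEB2 (chr2:144384081-144520119), the paralog of ZEB1, ranged from 24.3 to 64 over the 24 arrays and was called in no comparison. Its NT control arrays were at 52 and 38. The highest array was miR-544a mimic array 2 (64), beside 42 for array 1, and the lowest was miR-544a inhibitor array 2 (24.3), which was not detected. With the miR-655-3p mimic ZEB2 was at 30 and 26.6, and the log2 fold change against the control was -0.65 (95% interval -1.15 to -0.15, adjusted p = 0.0773). This value passed when any of miR-369-3p inhibitor array 1 or 2 or miR-544a mimic array 1 or 2 was left out (adjusted p between 0.0377 and 0.0492). Against the inhibitor arrays, ZEB2 with the miR-655-3p mimic passed without miR-369-3p inhibitor array 2 (-0.49), and with the miR-544a mimic without miR-369-3p inhibitor array 1 (0.53) or miR-544a mimic array 1 (0.77). A further ZEB2 probe was detected on 0 arrays.

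SNAI2 (chr8:48917598-48921429), which encodes Slug, was bright and detected on 24 arrays. Both NT control arrays stood at 1626.4, the same value because the probe held the same rank on both in the quantile normalization. With the miR-655-3p mimic it was at 740.4 and 816.5, and with the miR-127-5p mimic at 1066.6 and 734.6. All 4 of these arrays, like the other 8 mimic arrays, lay below the control. The log2 fold change was -1.06 with miR-655-3p (SE 0.2, 95% interval -1.49 to -0.64, limma adjusted p = 0.00153) and -0.88 with miR-127-5p (95% interval -1.3 to -0.45, adjusted p = 0.00472).

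The other 4 mimics did not pass for SNAI2. The levels were 1095.3 and 1072.1 with miR-410 (log2 fold change -0.59, adjusted p = 0.0816) and 1150.2 and 1276.5 with miR-135a (-0.42, adjusted p = 0.156). The miR-369-3p mimic, which shares the run of 13 bases with miR-655-3p, left SNAI2 at 1451.7 and 1404.8 (-0.19, 95% interval -0.61 to 0.24, adjusted p = 0.701). Without either miR-369-3p inhibitor array, the miR-410 mimic was called with the same change (adjusted p = 0.0136 and 0.0138).

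The inhibitor groups fell on both sides of the control for SNAI2. It was at 2075.3 and 2029.4 with the miR-135a inhibitor and at 1915.8 and 2090.2 with the miR-410 inhibitor, above both control arrays. It was below both with the miR-544a inhibitor (1187.2 and 1255.3) and the miR-655-3p inhibitor (1104.9 and 1132.6). None of these passed the test (adjusted p between 0.17 and 0.386). The miR-655-3p inhibitor, at -0.54, passed without either miR-369-3p inhibitor array (adjusted p = 0.0384 and 0.0389). The miR-369-3p inhibitor arrays stood apart from each other at 1674.8 and 950.9, with a log2 fold change of -0.37 that became 0.04 without array 2 and -0.78 without array 1 (adjusted p = 0.00567).

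Against the 10 inhibitor arrays, whose SNAI2 levels ran from 950.9 to 2090.2, both calls were also made: -0.93 with miR-655-3p (adjusted p = 0.000362) and -0.74 with miR-127-5p (adjusted p = 0.00155). The miR-655-3p arrays lay below all 10, while miR-127-5p array 1 overlapped them. The second SNAI2 probe gave the same 4 calls, with -0.92 for the miR-127-5p mimic and -1.16 for the miR-655-3p mimic against the control, and its group means correlated with those of the brightest probe at r = 0.97 over 12 groups. The miR-655-3p calls held under each alternative and with any array left out. The miR-127-5p calls were lost without its array 2 (-0.61 against the control, adjusted p = 0.0934, and -0.47 against the inhibitor arrays, adjusted p = 0.107), and the call against the control also under median scaling (adjusted p = 0.0525). Without miR-369-3p inhibitor array 2, the miR-410 mimic was also called lower than the inhibitor arrays (-0.53, adjusted p = 0.0052).

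FOXQ1 (chr6:1312098-1314758) had 1 probe, detected on 24 arrays, and the widest range of the members. Its group means spanned 2.94 on the log2 scale, more than 99.5% of the genes tested. The NT control arrays were at 849.3 and 829.1 and the miR-544a mimic arrays at 131.7 and 173.2, the lowest of all arrays. The log2 fold change was -2.47 (SE 0.14, 95% interval -2.77 to -2.18, limma adjusted p = 4.28e-09), and -2.21 against the inhibitor arrays (adjusted p = 3.79e-10). These 2 calls were also made without either miR-544a mimic array.

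FOXQ1 was also lower with the miR-135a mimic, at 502.1 and 542.9 (log2 fold change -0.68, 95% interval -0.98 to -0.39, limma adjusted p = 0.0018). Against the inhibitor arrays, which it overlapped, this mimic passed on p but not on fold (-0.42, limma adjusted p = 0.00828). FOXQ1 was higher with the miR-127-5p mimic, at 1190 and 1121.7, which lay above the other 22 arrays. That change was 0.73 against the inhibitor arrays (adjusted p = 6.02e-05) and 0.46 against the NT control, where it passed on p (adjusted p = 0.0245) but not on fold. The miR-655-3p mimic, at 569.2 and 638.1, was just under the fold threshold against the control (-0.48, adjusted p = 0.0268). The miR-369-3p mimic (779.1 and 757.4, log2 fold change -0.13) and the miR-410 mimic (622.1 and 697.6, -0.35) did not pass. The FOXQ1 calls of miR-544a (both references), miR-135a (NT control) and miR-127-5p (inhibitor arrays) held under each alternative and with any array left out.

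The inhibitor of miR-544a did not have the opposite sign to its mimic. FOXQ1 was at 587.2 and 537.8 with this inhibitor, below both control arrays (log2 fold change -0.58, adjusted p = 0.0223). This call was lost under median scaling and without either NT control array or either of the inhibitor's own arrays (-0.52 to -0.77, adjusted p between 0.0677 and 0.204). The other inhibitors left FOXQ1 between 608.8 and 849.2, and none passed.

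SNAI1 (chr20:49982980-49988886) was detected on 0 arrays, with levels between 18.4 and 20.6. TWIST1 (chr7:19113047-19117636) was detected on 1 array, at 30.9, and lay between 19.5 and 25.5 on the others. For these 2 genes and the further ZEB2 probe no difference can be given at this signal.

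VIM (chr10:17228241-17237593) was at 11246.3 and 11191.1 in the NT control and stayed between 8009.8 and 14417.7 on all arrays. Its group means spanned 0.54 on the log2 scale, a range exceeded by most genes, since it lay at percentile 20.6. The highest group was the miR-544a mimic (12048.9 and 14417.7), and the lowest was the miR-369-3p inhibitor (10297.7 and 8009.8). Against the control the mimics ran from -0.23 (miR-655-3p, 95% interval -0.49 to 0.03) to 0.23 (miR-544a, 95% interval -0.03 to 0.49), and none passed. Against the inhibitor arrays, VIM was higher on p but not on fold with miR-127-5p (0.32, adjusted p = 0.0167) and miR-544a (0.35, adjusted p = 0.00982). The second VIM probe had -0.32 for miR-655-3p and 0.33 for miR-544a against the control, and the 2 probes correlated at r = 0.9 over 12 group means. Without miR-369-3p inhibitor array 1, that inhibitor was called lower than the control (-0.49, adjusted p = 0.0146).

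KRT8 (chr12:52897191-52949860) had 1 probe, at 1462.4 and 1550.9 in the NT control. It was highest with the miR-655-3p mimic, at 2397.5 and 2793.8, above the other 22 arrays. The log2 fold change was 0.78 (SE 0.15, 95% interval 0.46 to 1.1, limma adjusted p = 0.00192), and 0.68 against the inhibitor arrays (adjusted p = 0.000462). The miR-369-3p mimic followed at 2242.5 and 2272.8 (0.58, 95% interval 0.26 to 0.9, adjusted p = 0.0302). The miR-135a mimic, at 2039.6 and 2169.9, was just under the fold threshold (0.48, adjusted p = 0.032). All 6 arrays of these 3 mimics lay above the 10 inhibitor arrays, which ran from 1286.6 to 2019.1.

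The other 3 mimics gave log2 fold changes of KRT8 between 0.02 and 0.09, and none of the inhibitors passed. The miR-655-3p call against the control was lost under median scaling only (0.78, adjusted p = 0.0604), and that against the inhibitor arrays under no alternative. The miR-369-3p call against the control was lost under median scaling and without either NT control array or either of its own arrays (0.54 to 0.67, adjusted p between 0.119 and 0.215). Against the inhibitor arrays miR-369-3p missed the fold threshold (0.48, adjusted p = 0.0197), and it passed without any 1 of 5 inhibitor arrays, namely miR-135a array 2, miR-369-3p array 2, miR-410 array 1, miR-544a array 2 and miR-655-3p array 1 (0.49 to 0.52).

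KRT18 (chr12:52948855-52952906), whose annotated span overlaps that of KRT8, varied most between the 2 arrays of a group. The NT control was at 97.9 and 111.5. The highest group was the miR-135a mimic, at 207 and 156. The miR-544a mimic arrays were at 190.5 and 19.7, the second not detected, and the miR-655-3p mimic arrays at 142.1 and 56.7. The second KRT18 probe had the same split, with 94.5 and 20.9 for miR-544a and 64.9 and 30.4 for miR-655-3p.

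With this spread no KRT18 difference passed on the brightest probe, and the 95% interval for a mimic against the control was 1.41 wide on either side. The miR-544a mimic had -0.77 against the control with both arrays, 0.98 in the authors' table, in which array 2 has no value, 0.86 without array 2 (adjusted p = 0.172) and -2.41 without array 1 (adjusted p = 0.000378). The miR-135a mimic had 0.78 (adjusted p = 0.471) by the brightest probe. By the second probe it had 1.16 against the control (adjusted p = 0.093) and 1.02 against the inhibitor arrays (adjusted p = 0.0492), the single call of a KRT18 probe. The 2 probes correlated at r = 0.7 over 12 group means.

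**Figure D2:**
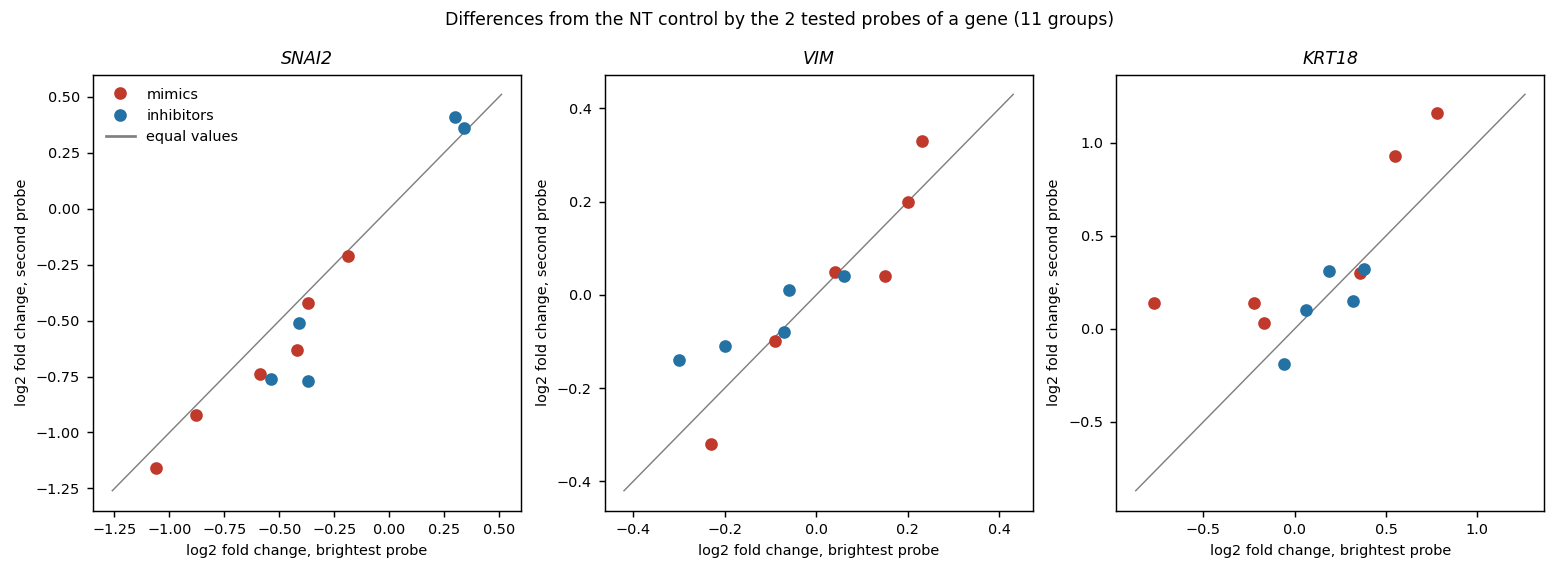
Log2 fold change against the NT control by the brightest (x) and the second (y) tested probe of SNAI2, VIM and KRT18, with 1 point per group and a grey line at equal values. Group means by the brightest and second probe correlated at r = 0.97 for SNAI2 and 0.9 for VIM. The SNAI2 point of the miR-369-3p inhibitor lies off the line, with -0.37 by the brightest probe and -0.77 by the second. The KRT18 point farthest from the line is the miR-544a mimic, with -0.77 by the brightest probe and 0.14 by the second.

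Counted over the 7 members and 6 mimics, 7 of 42 tests against the NT control were called lower and 2 higher, where 7.39% and 7.9% of all gene tests were called lower and higher in the same comparisons. By mimic, the members called lower were 2 of 7 with miR-127-5p (9.4% of all genes), 2 with miR-135a (9.28%), 0 with miR-369-3p (2.95%), 0 with miR-410 (4.63%), 2 with miR-655-3p (7.39%) and 1 with miR-544a (10.7%). The members called higher were KRT8 for the mimics of miR-369-3p (2.86% of all genes) and miR-655-3p (6.68%), and there were 0 among those of miR-135a (10%), miR-127-5p (9.71%), miR-410 (4.14%) and miR-544a (14%). At an unadjusted p under 0.05, limma gave 15 lower and 4 higher of the 42, among them 3 lower with miR-410 (ZEB1, SNAI2 and FOXQ1). The share of all genes at this unadjusted threshold was not counted, so no excess can be read from these counts. The members had a median log2 fold change of -0.48 for the miR-655-3p mimic, of -0.37 for the miR-544a mimic and between -0.17 and 0.01 for the other 4, while that of all genes was between 0.01 and 0.05.

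Of the 35 tests of inhibitors against the NT control, 2 were called lower (4.63% of all gene tests) and 0 higher (4.84%). At an unadjusted p under 0.05 there were 7 lower and 0 higher, and Significance Analysis of Microarrays called 4 lower and 0 higher. The shares of all genes under these 2 rules were not counted, so no excess can be read here either. The 2 calls were ZEB1 with the miR-369-3p inhibitor (5.6% of all genes lower) and FOXQ1 with the miR-544a inhibitor (2.42%). Of all genes, the miR-135a inhibitor lowered 6.97% and raised 6.58%, with 0 members in either direction, and the miR-410 inhibitor lowered 6.58% and raised 4.59%, also with 0. The miR-655-3p inhibitor lowered 1.57% and raised 2.52% of all genes, again with 0 members, and 0 members were higher with the inhibitors of miR-369-3p (8.15% of all genes) and miR-544a (2.35%). Against the 10 inhibitor arrays, 3 of 42 tests of mimics were lower and 2 higher (7.04% and 7.42% of all gene tests). These were SNAI2 with miR-127-5p (10.6% of all genes lower) and miR-655-3p (7.46%), FOXQ1 lower with miR-544a (10.5%) and higher with miR-127-5p (11% higher), and KRT8 with miR-655-3p (7.14% higher). No member was called in this comparison with miR-135a (7.93% of all genes lower and 8.62% higher), miR-369-3p (2.05% and 2.13%) or miR-410 (3.7% and 3.02%). An unadjusted limma p under 0.05 was reached there by 3, 1 and 1 of the 7, again without a counted share of all genes. All mimic comparisons with the control share the same 2 control arrays, and those with the inhibitors share the same 10.

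**Figure D3:**
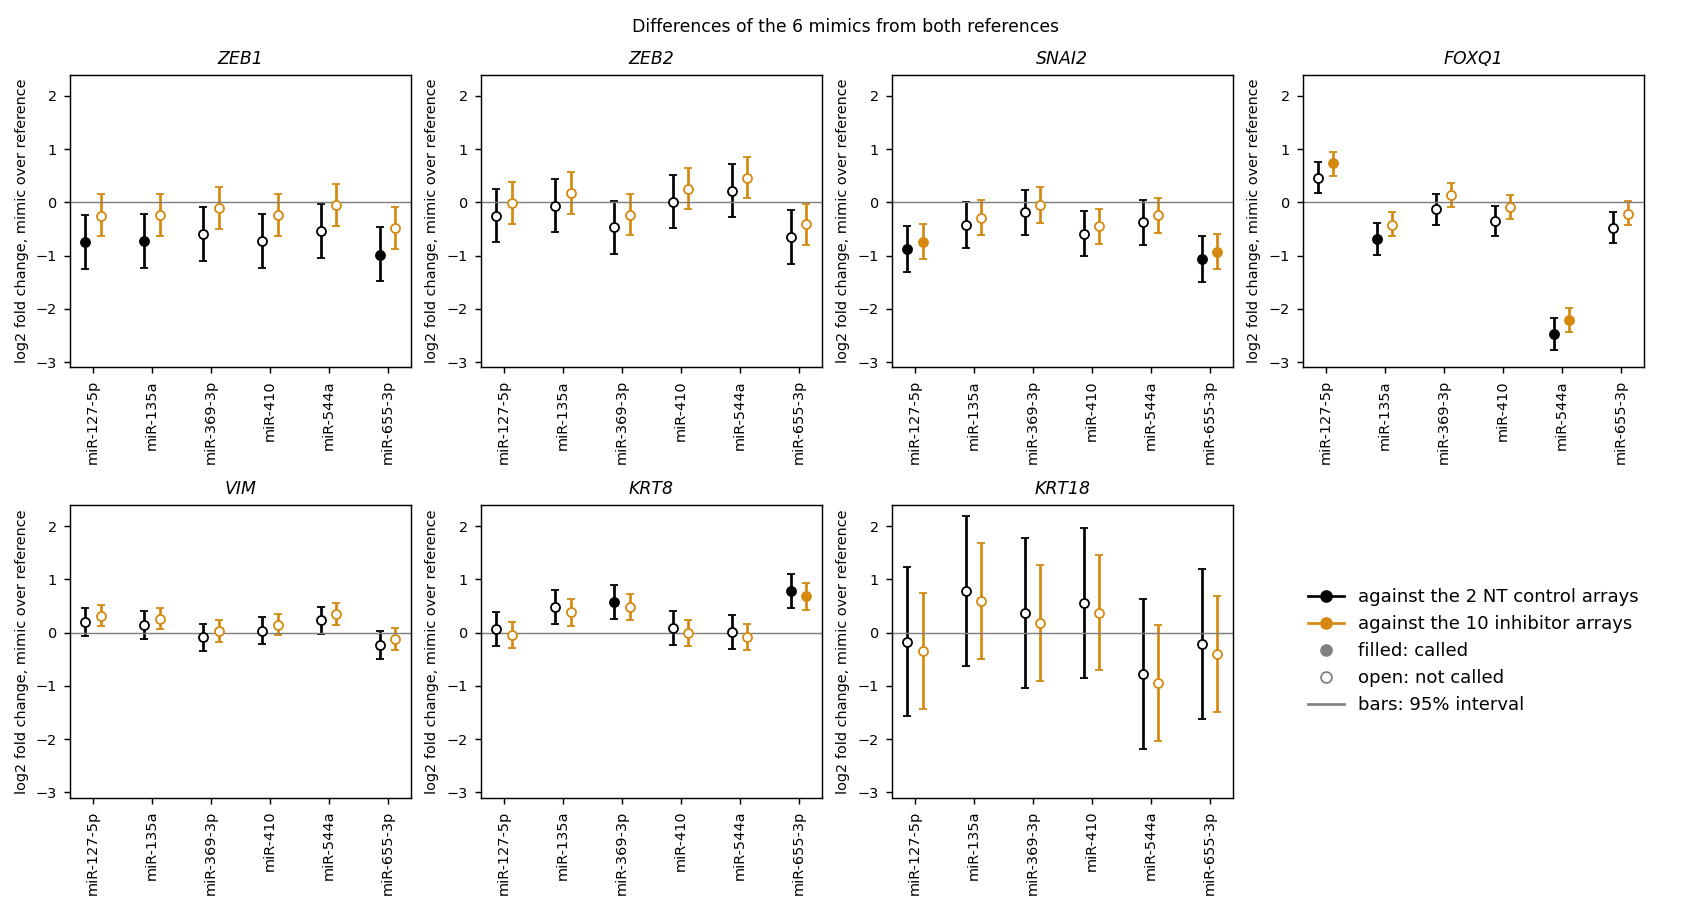
Log2 fold change of each mimic against the 2 NT control arrays (black) and against the 10 inhibitor arrays (orange) for 7 genes, with 95% intervals; filled points were called. FOXQ1 with miR-544a (-2.47 and -2.21), SNAI2 with miR-127-5p and miR-655-3p and KRT8 with miR-655-3p were called against both references. ZEB1, FOXQ1 with miR-135a and KRT8 with miR-369-3p were called against the NT control alone, and FOXQ1 with miR-127-5p against the inhibitor arrays alone.

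Neighbours in the order of the 12 group means could rarely be told apart. For FOXQ1, 2 of 11 neighbouring pairs differed beyond the 95% interval of a difference between 2 groups: the miR-127-5p mimic above the NT control by 0.46, and the miR-135a mimic above the miR-544a mimic by 1.79 on the log2 scale. For the other 6 genes, 0 of 11 neighbouring pairs did. The range of the group means was 1.55 for KRT18, 1.4 for SNAI2, 1.12 for ZEB1, 0.94 for KRT8 and 0.91 for ZEB2. ZEB1 was highest in the NT control, SNAI2 in the miR-135a inhibitor group and KRT8 in the miR-655-3p mimic group.

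As a description over the 12 group means, each of 2 arrays and all measured on the same 24 arrays, ZEB1 and SNAI2 varied together (r = 0.72), and KRT8 varied against ZEB1 (r = -0.6), ZEB2 (r = -0.6) and SNAI2 (r = -0.58). FOXQ1 had r between -0.35 (VIM) and 0.47 (KRT18) with the other 6 genes. VIM had r = 0.5 with ZEB2, -0.2 with SNAI2 and -0.23 with KRT8. The 2 keratins that pair in filaments had r = 0.13. The genes with the pattern most like each member over these groups were VPS33A (r = 0.962), YIPF1 and STAMBP for FOXQ1, and EIF1B (r = 0.879), CDKL3 and MTX3 for SNAI2. They were CCNC (r = 0.875), LMAN1 and METTL6 for ZEB1, and CCL26 (r = 0.876), CLDN20 and BRF2 for ZEB2. For the filament genes they were ZMYND8 (r = 0.93), MLLT10 and SH3BGRL for VIM, LRRN4 (r = 0.895), ADCY3 and AIF1L for KRT8, and STK16 (r = 0.954), GPR107 and CHMP6 for KRT18. The genes named for KRT18 were dim, with group levels between 24.8 and 59.5. KRT18 and FOXQ1 were both lowest in the miR-544a mimic group, where KRT18 was detected on only 1 array. Their r without this group was not computed.

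Genes around the members in the EMT programme were counted by 6 lists. These lists were chosen with earlier results of these data known, so an excess over the share of all genes is a description only. The list of epithelial target genes of ZEB and SNAI factors had 15 tested of 23 listed. CDH1, the classical target, was not detected. With the miR-655-3p mimic, 8 of the 15 were higher than the NT control and 0 lower (6.68% and 7.39% of all genes), with a list median of 0.67 against 0.01 for all genes. The cell adhesion gene MPZL2 rose from 47.2 to 438.6 (log2 fold change 3.22, limma adjusted p = 2.62e-09) and the adhesion gene EPCAM from 525.2 to 3595.3 (2.78, adjusted p = 1.39e-09). The tight junction gene CGN rose from 32.8 to 187 (2.51) and the desmosome gene PKP3 from 32.7 to 128.2 (1.88). Part of this rise was shared between mimics. CGN was called higher than the control with every mimic except that of miR-135a. AP1M2, also on this list, was higher with every mimic except that of miR-544a, with which it was lower. MPZL2 was also higher with miR-544a and miR-369-3p, and lower with miR-135a. Among the mimics, PKP3, CRB3 and ST14 were called with miR-655-3p alone. With the miR-127-5p mimic, 5 of 15 were higher and 0 lower (9.71% and 9.4% of all genes), with a list median of 0, and EPCAM and PKP3 were not among them.

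The other mimics called fewer of these epithelial genes. Against the control, 4 of 15 were higher with miR-369-3p (2.86% of all genes), 3 with miR-135a (10%), 3 with miR-544a (14%) and 2 with miR-410 (4.14%). The lower genes were 0 (2.95%), 1 (9.28%), 1 (10.7%) and 1 (4.63%) in the same order. EPCAM was also higher with the miR-369-3p mimic (0.68, adjusted p = 0.00392) and with the miR-655-3p inhibitor (0.54, adjusted p = 0.0244). Of the mesenchymal genes, 17 of 24 listed were tested, and the miR-655-3p mimic lowered 7 and raised 2 (7.39% and 6.68% of all genes). The list median was -0.47 against the control and -0.1 against the inhibitor arrays, and it was between -0.33 and -0.08 for the 5 inhibitors against the control. The lower genes included TGFBI (-1.32, adjusted p = 4.19e-07), a matrix protein, and LOX (-1.27), which cross-links collagen. The actin gene ACTA2 (1.48) and the collagen gene COL1A1 (1.31) were higher. The fall of TGFBI and LOX was not particular to miR-655-3p. TGFBI was called lower than the control with every mimic except that of miR-135a. LOX was also lower with miR-410 and miR-369-3p, and higher with miR-127-5p. With miR-544a, 3 were lower and 4 higher (10.7% and 14% of all genes). The higher genes were led by the matrix gene TNC (2.6, adjusted p = 1.14e-07) and ACTA2 (2.18). With miR-410, 3 were lower and 1 higher (4.63% and 4.14% of all genes), and with miR-369-3p 3 and 0 (2.95% and 2.86%). For miR-135a these were 2 and 0 (9.28% and 10%), and for miR-127-5p 3 and 3 (9.4% and 9.71%). TGFBI was also lower than the control with all 5 inhibitors (-0.53 to -0.94). The cadherin gene CDH11 was lower than the NT control with all 6 mimics and with all 5 inhibitors. Against the inhibitor arrays CDH11 was called lower with miR-544a, higher with miR-127-5p and miR-410, and not called with the other mimics. TGFBI was called lower there with miR-544a and miR-655-3p and higher with miR-135a.

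Of the other EMT-promoting transcription factors, 15 of 24 listed were tested. With miR-544a, SOX4 rose from 44.2 to 142.1 (log2 fold change 1.69, limma adjusted p = 1.31e-06), FOXC2 was at least 1.81-fold higher than in the control, where it was not detected, and HMGA2 was higher (0.49), while TEAD1 was lower (-0.71). With miR-135a, ZNF281 (-0.82), TEAD1 (-0.78) and RUNX2 (-0.73) were lower and HMGA2 was higher (0.55). HMGA2 was also higher with 4 of 5 inhibitors (0.57 to 0.88), and no mimic was called higher for it against the inhibitor arrays. ETS1 (-0.77) and RUNX1 (-0.67) were lower with miR-410 and FOSL1 (-0.67) with miR-127-5p. For the miR-369-3p mimic, limma called 0 of the 15 against the control (2.95% of all genes lower and 2.86% higher), and also 0 for the miR-655-3p mimic (7.39% and 6.68%). At an unadjusted p under 0.05 the first had 2 lower and 0 higher, and the other had 3 lower and 1 higher. The share of all genes at that threshold was not counted.

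Of 18 epithelial-state factors, 10 were tested. Against the control, miR-544a lowered 3 and raised 0 (10.7% and 14% of all genes), and miR-135a lowered 3 and raised 1 (9.28% and 10%). The miR-127-5p mimic lowered 1 and raised 2 (9.4% and 9.71%), and that of miR-655-3p lowered 1 and raised 1 (7.39% and 6.68%). For miR-410 these were 0 and 1 (4.63% and 4.14%), and for miR-369-3p 0 and 0 (2.95% and 2.86%). KLF4 was higher with miR-655-3p (0.98, limma adjusted p = 0.00266) and EHF with miR-135a (1.33), miR-410 (1.3) and miR-127-5p (1.08). EHF was also higher than the control with the inhibitors of miR-135a (1.76, adjusted p = 0.00245) and miR-410 (1.85, adjusted p = 0.00235), and no mimic was called for it against the inhibitor arrays. TFAP2C was higher with miR-127-5p (1, adjusted p = 0.000297) and lower with miR-655-3p (-0.81), miR-135a (-0.7) and miR-544a (-0.54), and TFAP2A was lower with miR-135a (-0.88). GATA3 was lower with miR-544a and miR-135a, RBM47 with miR-544a and ESRP2 with miR-127-5p. Of 21 other keratins, 7 were tested. KRT19, a partner of KRT8 in simple epithelia, was higher with miR-655-3p (0.89, adjusted p = 0.000383), miR-135a (0.68), miR-369-3p (0.67) and miR-127-5p (0.62), and KRT15 with miR-127-5p (1.03), miR-544a (0.93), miR-655-3p (0.67) and miR-135a (0.66). Against the inhibitor arrays, KRT19 was called only with miR-655-3p, and KRT15 with the same mimics as against the control. KRT34 rose (1.59) and KRT80 fell (-0.85) with miR-135a, and KRT80 was also lower with the inhibitors of miR-135a (-0.86), miR-369-3p (-0.57) and miR-410 (-0.57).

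Of 17 other intermediate filament and linker genes, 11 were tested. Against the control, miR-655-3p lowered 0 and raised 2 (7.39% and 6.68% of all genes), and miR-544a lowered 2 and raised 1 (10.7% and 14%). The linkers DSP and PPL, which attach filaments to junctions, were higher with miR-655-3p (1.29 and 0.98, limma adjusted p = 0.00144 and 0.00836). PPL was lower with the miR-544a mimic and with the inhibitors of miR-135a (-1.41), miR-410 (-1.24) and miR-369-3p (-0.91). Against the inhibitor arrays PPL was called higher with every mimic except that of miR-544a. Plectin (PLEC), another linker, was lower with miR-544a (-1.87, adjusted p = 0.00823), and nestin (NES) was higher with miR-544a (1.02) and lower with miR-127-5p (-0.82) and with the miR-135a inhibitor (-0.79). With the miR-135a mimic DSP was lower (-0.91).

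**Figure D4:**
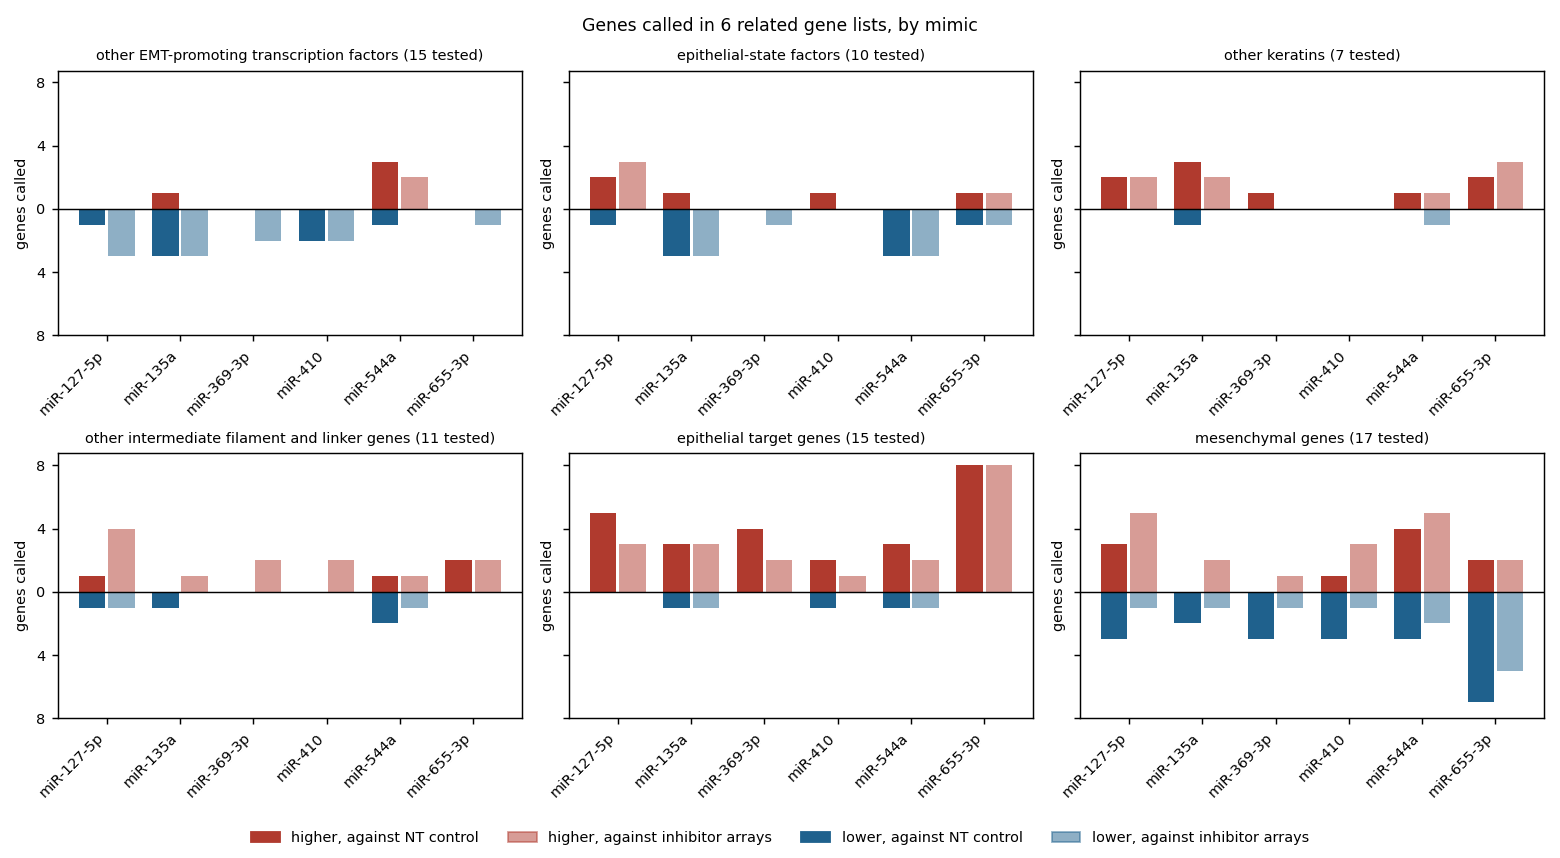
Number of genes called higher (up) and lower (down) in 6 lists for each mimic, against the NT control (dark) and against the inhibitor arrays (light). The epithelial target genes with miR-655-3p had 8 higher and 0 lower of 15 against each reference. Of these, AP1M2 was called against the NT control alone and MAL2 against the inhibitor arrays alone. The mesenchymal genes had 7 lower and 2 higher of 17 against the NT control, and 5 lower and 2 higher against the inhibitor arrays. Of all genes, 7.39% were lower and 6.68% higher against the NT control, and 7.46% and 7.14% against the inhibitor arrays.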

How the data were processed

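The authors hybridised the labelled RNA of 24 samples to Illumina HT12v4 arrays and deposited, for each probe and array, a signal intensity and a detection p-value. The submitters' table of processed log2 values, which the authors subtracted for background and quantile normalized in BeadStudio, was deposited too and served as an alternative. It had no value for 13353 to 13395 probes per array. Its values were log2 with a slope of 1.04 on the log2 of the deposited signal for bright probes, and its centring is not stated.

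The intensities were corrected and quantile normalized with neqc (limma 3.58.1, R 4.3.3, offset 16), with background estimated from the detection p-values, and put on the log2 scale. Of 47309 probes, 22803 had a detection p under 0.05 on each array of 1 or more groups and were tested. 1 linear model with 12 group means was fitted over the 24 arrays (residual df 12), and 17 differences were tested with limma's moderated statistics: 6 mimics and 5 inhibitors against the NT control, and 6 mimics against the mean of the 5 inhibitor groups. P-values were adjusted by Benjamini-Hochberg over all tested probes within each comparison. Intervals are at 95%. A probe not detected on any array of a group has only a bound there, and its fold is given as at least the bright group's mean over the higher of its own level and the lowest level detected on each array.

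Gene names came from the platform annotation, in which 30109 probes had 1 symbol, 8 several and 17192 none. Sequences and positions came from RefSeq on GRCh38.p14. The 12529 tested genes were each represented by the brightest tested probe. All members were named, with up to 4 genes per list with the largest change and those that a sentence counts, and for each member the 3 genes with the highest correlation over group means. The members and lists were chosen with earlier results of these data known. Signal over background, not depth, limits the precision, and 2 arrays per group give wide intervals. Alternatives were no background correction, the authors' table, median scaling, no filter or a stricter one on dim probes, only the arrays compared, a replicate block, no fold threshold, Significance Analysis of Microarrays, and leaving out each array.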

Additional observations from a re-analysis of the deposited data

Results flagged for a closer look

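TWIST1, which was not tested, was detected on 1 of 24 arrays. Its level was 30.9 on miR-369-3p inhibitor array 2, where the other array of the group stood at 21.4 and the NT control at 20.4 and 20.7, with none of these 3 detected. The probe lies outside the comparisons, and its signal here was above that in the control. The same array had the lowest ZEB1 and VIM levels of the series and 1 of the lower SNAI2 levels (950.9). The part of this array in these values was not tested.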

How the results depend on the processing

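Of 119 member differences, 16 were called, 24 more were called only under some alternative and 79 under none, of which 35 changed sign. Calls of mimics against the NT control were 7 lower and 2 higher. They became 4 lower without background correction and 11 by Significance Analysis of Microarrays, with 4 (without either NT control array) to 10 (without either miR-369-3p inhibitor array) when 1 array was left out, and 0 higher under median scaling, 4 without the fold threshold, and 1 (without either NT control or miR-369-3p mimic array) to 2 when 1 array was left out. Calls of inhibitors, 2 lower, became 1 without background correction, under median scaling or with only the arrays compared, 4 by Significance Analysis of Microarrays, and 1 (without either NT control or miR-544a inhibitor array) to 5 (without miR-369-3p inhibitor array 1) when 1 array was left out. Calls against the inhibitor arrays, 3 lower and 2 higher, became 6 higher without the fold threshold, and 2 to 6 lower (6 without miR-369-3p inhibitor array 2) and 2 to 3 higher when 1 array was left out. The cause of these moves was not tested, and the counts under alternatives have no share of all genes beside them.

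KRT18 with the miR-544a mimic changed sign, from -0.77 to 0.98 in the authors' table and 0.86 without array 2 (-2.41 without array 1) against the NT control, and from -0.95 to 0.77 and 0.69 (-2.58) against the inhibitor arrays. SNAI2 with the miR-369-3p inhibitor changed from -0.37 to 0.04 without its array 2 and -0.78 without array 1. Median scaling moved the median of all genes by 0.1 or more in 8 comparisons, to between -0.21 and 0.15. Deviations of samples with the same replicate number correlated over 0.1 in 27 of 66 pairs of groups (r between -0.485 and 0.521), so the numbers were not taken to pair the samples. With the replicate number as a block the member counts stayed at 7 lower and 2 higher for mimics and 2 lower for inhibitors against the control, and 3 lower and 2 higher against the inhibitor arrays. The BeadChip as a block was not run, since the files used here name no chip, and Significance Analysis of Microarrays was run only against the NT control. ZEB1 and ZEB2 lie near the background, and the standard error was widest for KRT18 (0.66), whose miR-544a and miR-655-3p mimic arrays stood apart within their groups.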
